A study of Mus musculus with 63 samples.

Results

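Kidney ECs were compared between obstructed and sham-operated mice at an early point of injury. The comparison used the 4 EC libraries of UUO-2 and the 4 EC libraries of sham, 8 of the 63 small RNA libraries of the series, and all 2110 counted loci of mature miRNAs. UUO-2 mice had the ureter of 1 kidney ligated and were culled 2 days later, and sham mice had the operation without obstruction. All were male C57BL/6 mice of 8 to 12 weeks and the mice sequenced in each group were those nearest to the group's mean of the injury marker KIM-1. ECs were sorted as CD45-CD31+ cells from digested kidney cortex, so that what was measured is a sorted pool of cortical endothelium and not single vessels or segments. A miRNA is cut from a hairpin in a longer transcript, is loaded into an Argonaute protein and represses mRNAs that pair with its seed, bases 2 to 8. In endothelium, miR-126 from the Egfl7 gene is the defining miRNA, and inflammatory signals through NF-κB are known to induce a small set that includes miR-155, miR-146a and miR-21.

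The total count was 7395011 to 10819385 in the sham libraries and 2792366 to 6386817 in the UUO-2 libraries, so every sham library was deeper than every UUO-2 library. A count of 3, the floor used here, was worth 0.272 to 0.355 CPM, the count scaled to an equal library total, in sham and 0.421 to 1.04 CPM at UUO-2, and these floors speak to counting error alone. In sham the top 10 loci held 72.1% to 74.6% of the counts, and at UUO-2 72.0% to 74.5%. After edgeR's filter on low counts, 469 loci were tested. The defining markers of ECs were high: miR-126a-5p stood at 73017 to 83186 CPM in sham and 59518 to 89034 CPM at UUO-2, and its opposite arm miR-126a-3p at 13572 to 17602 and 13778 to 17179 CPM. On a scale shared by all 63 libraries, the summed miR-126a arms averaged 149868 CPM in sham ECs. Macs had 1620, PDGFR-β+ cells 2313 and PT cells 695 CPM.

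At UUO-2, 7 loci rose and 1 fell (edgeR quasi-likelihood test over the 16 EC libraries, Benjamini-Hochberg FDR under 0.05 and fold change above 1.5). These are 1.71% of the loci tested, 1.49% higher and 0.213% lower. The loci that rose were both arms of the miR-21a hairpin, miR-147-3p, miR-92b-3p, miR-142a-5p, miR-155-5p and miR-351-5p, and the locus that fell was miR-1941-5p. With library size alone in place of the scaling factors (TMM), 5 rose and 0 fell. At an unadjusted p under 0.05, 39 loci (8.32%) were higher and 23 (4.9%) lower. The libraries did not overlap for 31 loci higher and 27 lower at UUO-2, 6.61% and 5.76% of those tested. With library size alone those counts were 20 and 32. The median change of all loci was 0.02 on the log2 scale.

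The mature sequences of 7 of the 8 loci that changed are given first, because the seed (in capitals, bases 2 to 8) sets which mRNAs each can pair with, and because 2 of them share their seed with far more abundant miRNAs of ECs. Sequences are from RefSeq on GRCm38.p6, 5′ to 3′. No sequence is given for miR-147-3p, whose seed relatives were therefore not analysed here.
miR-21a-5p: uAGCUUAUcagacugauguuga
miR-21a-3p: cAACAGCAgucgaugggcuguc
miR-142a-5p: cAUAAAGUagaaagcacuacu
miR-155-5p: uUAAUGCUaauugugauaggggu
miR-1941-5p: aGGGAGAUgcugguacagaggcuu
miR-92b-3p: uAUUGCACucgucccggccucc
miR-92a-3p: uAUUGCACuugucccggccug
miR-25-3p: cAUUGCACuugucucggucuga
miR-351-5p: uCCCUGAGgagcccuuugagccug
miR-125a-5p: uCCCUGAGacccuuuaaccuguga
miR-125b-5p: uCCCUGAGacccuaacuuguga
The loci of the first 5 shared their seed with no other locus past the filter. miR-92b-3p carried the seed of miR-92a-3p and miR-25-3p, and miR-351-5p that of miR-125a-5p and miR-125b-5p.

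Both arms of the miR-21a hairpin were far above sham at UUO-2. miR-21a-5p, a miRNA induced in injured and inflamed tissue, lies on chr11:86584120-86584141 (GRCm38, minus strand) in an exon of Vmp1. It was at 920.1, 856, 1065 and 879 CPM in sham replicates 1 to 4 and at 3434, 4559, 3676 and 5060.1 CPM in UUO-2 replicates 1 to 4. The lowest UUO-2 library was thus far above the highest sham library, and the change was 2.17 on the log2 scale (SE 0.19, n = 4 and 4, 4.5-fold, edgeR FDR 1.23e-06). The opposite arm, miR-21a-3p, was at 4.97, 5.72, 5.35 and 6.38 CPM in sham and 68.6, 42.1, 31.8 and 42.6 CPM at UUO-2. Its change was larger, 3.04 on the log2 scale (SE 0.30, 8.21-fold, edgeR FDR 4.34e-06). Its share of the reads of the hairpin was 0.50% to 0.721% in sham and 0.834% to 1.96% at UUO-2, without overlap. The share of 1.96% was that of UUO-2 replicate 1, well above the other libraries of its group, so the size of the shift depends on that library. The log2 ratio of the arms (3p over 5p) moved from -7.36 ± 0.25 to -6.53 ± 0.60 (SD, n = 4 each; 2-sided exact permutation test, p = 0.0286, the smallest that 4 against 4 libraries can give). This was the 1 hairpin of those called whose minor arm had at least 10 counts in every library. Both calls held in each of the 20 alternative settings that were run.

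miR-147-3p, which is induced by Toll-like receptor signalling in leukocytes, was close to the floor in sham ECs. It lies on chr2:122640850-122640871 (plus strand) in an exon of AA467197. Sham libraries held 5, 4, 8 and 0 reads (0.518, 0.388, 0.726 and 0 CPM), and UUO-2 libraries held 28, 29, 49 and 23 reads (8.62, 6.16, 6.87 and 7.96 CPM). All UUO-2 libraries were above all sham libraries although they were less deeply sequenced. The fitted change was 4.06 on the log2 scale (SE 0.68, 95% confidence interval 2.62 to 5.5, edgeR FDR 0.00261), with the wide interval that so few sham reads give. The call held in all 20 alternatives.

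miR-155-5p, the product of the Mir155hg transcript that NF-κB and AP-1 induce in activated cells, lies on chr16:84714143-84714165 (plus strand) in an exon of that gene. It was at 13.7, 9.99, 9.34 and 8.04 CPM in sham and 27.7, 32.1, 16.8 and 38.8 CPM at UUO-2. The groups did not overlap, with UUO-2 replicate 3 nearest to sham, and the change was 1.48 on the log2 scale (SE 0.33, edgeR FDR 0.0275). The call was lost with limma-voom and when any of 6 libraries was left out (sham replicate 2, 3 or 4, UUO-2 replicate 1, 2 or 4), with FDR values from 0.0677 to 0.104 and log2 changes of 1.36 or more. The rarer arm miR-155-3p had 0, 0, 0 and 1 reads in sham and 1, 8, 1 and 4 reads at UUO-2, too few for a test of the ratio.

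miR-142a-5p is made in nearly all blood cells and is the leading leukocyte marker of the list used here. It lies on chr11:87756867-87756887 (plus strand) in an intron of Mir142hg. It was at 11.1, 20.5, 18.5 and 34.4 CPM in sham ECs and 66.8, 58.2, 35.2 and 72.7 CPM at UUO-2. The highest sham library and the lowest UUO-2 library nearly met, and the change was 1.46 on the log2 scale (SE 0.31, edgeR FDR 0.0173). It was no longer called without sham replicate 2 or 3 or UUO-2 replicate 1 or 4 (FDR 0.0531 to 0.0808). Its opposite arm miR-142a-3p carried the same counts as miR-142b, which overlaps it on the other strand, so that the reads of these loci could not be told apart. It had at most 6 reads in a sham library and 11 in a UUO-2 library.

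Other leukocyte markers and the Mac libraries give the scale of that signal. Of 8 leukocyte markers, 5 could be tested, and miR-142a-5p and miR-155-5p rose, against 1.49% of all loci. miR-223-3p, the myeloid miRNA, had 7 to 20 reads in sham and 8 to 19 at UUO-2 (1.30 and 3.46 CPM on average, log2 change 1.38, edgeR FDR 0.201). miR-150-5p, a lymphocyte miRNA, was at 2015 CPM in sham ECs and 1634 CPM at UUO-2 and made up most of the summed list, which was 1820 to 2222 CPM in sham and 887 to 2059 CPM at UUO-2. The sum thus follows miR-150-5p and does not show how the other members moved. Of the 5 tested, 4 had a log2 change above 0 and only miR-150-5p was below 0. Which cells its reads came from was not tested. Of the markers not tested, miR-223-5p was at 0 in 4 of the 8 libraries, miR-511-5p in 5 and miR-511-3p in 1. On the scale shared by all libraries, the UUO-2 level of ECs was 0.343% of that of UUO-2 Macs for miR-142a-5p and 0.25% for miR-223-3p. For the other loci that rose the same share was 10.1% (miR-21a-5p), 4.24% (miR-21a-3p), 15.9% (miR-147-3p) and 54.4% (miR-155-5p), and it was 592% for miR-92b-3p and 440% for miR-351-5p. The part that leukocyte RNA had in the rise of miR-142a-5p was not tested.

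**Figure D1:**
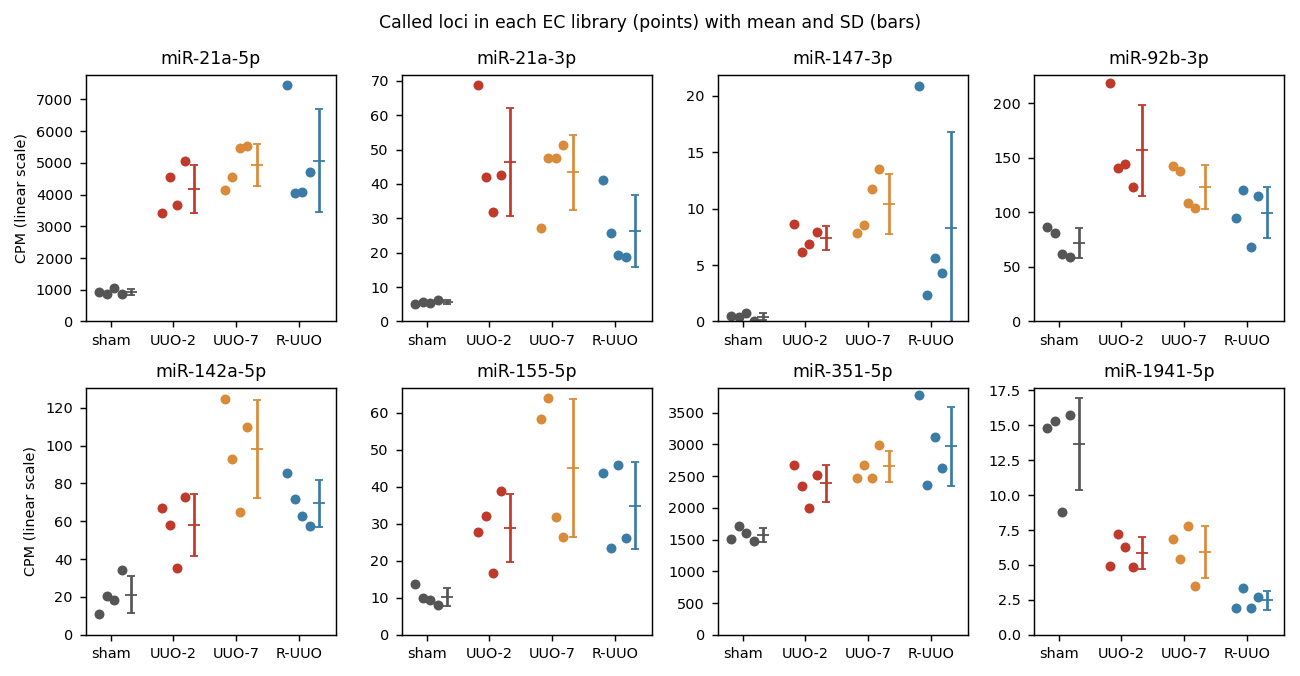
CPM (linear axis, scaled within ECs) of the 8 called loci in each EC library, with the 4 conditions side by side and mean and SD of 4 libraries (bars, cut at 0). For all 8 loci the sham and UUO-2 points do not overlap, and miR-1941-5p alone is lower at UUO-2.

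miR-92b-3p and miR-351-5p rose within seed families whose other members did not pass the test. miR-92b-3p lies on chr3:89227126-89227147 (minus strand), outside any annotated host gene, and belongs to the miR-25 and miR-92 family of cell cycle and survival regulators. It was at 86.8, 81.0, 61.9 and 59.0 CPM in sham and 218, 141, 144 and 124 CPM at UUO-2, without overlap. The change was 1.12 on the log2 scale (SE 0.21, edgeR FDR 0.00847), and the call was lost with library size alone (the log2 change was at least 0.91 in every setting). Its relatives were much more abundant: miR-92a-3p (chromosome 14) averaged 7108 CPM in sham and 7930 CPM at UUO-2 (FDR 0.731), and miR-25-3p 1144 and 1122 CPM (FDR 0.956). miR-92b-3p was therefore 0.832% of the reads with this seed in sham and 1.63% at UUO-2. The sum over the seed was 8223 to 8962 CPM in sham and 8411 to 11781 CPM at UUO-2, which overlap (1.11-fold, 2-sided exact permutation test, p = 0.286).

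miR-351-5p lies on chrX:53053315-53053338 (minus strand), beside miR-322 and miR-503, and shares its seed with the miR-125 family. It was at 1513, 1712, 1608 and 1469 CPM in sham and 2674, 2345, 1995 and 2519 CPM at UUO-2, the smallest fold change of the called loci (0.60 on the log2 scale, SE 0.14, 1.51-fold, edgeR FDR 0.0275). All UUO-2 libraries were above all sham libraries, but the fold change lay only just past the 1.5 required. The call was lost in 10 of 20 alternatives, among them the removal of sham replicate 2, 3 or 4 or UUO-2 replicate 1 or 4 (FDR 0.0531 to 0.110). Of its neighbours, miR-322-5p, a miRNA of the miR-15/16 seed group with roles in cell cycle exit and vessel growth, averaged 1344 CPM in sham and 1848 CPM at UUO-2 (log2 change 0.46, FDR 0.439). Of its seed relatives, miR-125a-5p averaged 13803 and 15991 CPM (log2 change 0.21, FDR 0.377) and was the most abundant. The rarer miR-125b-5p averaged 236 and 311 CPM on chromosome 16 (log2 change 0.40, FDR 0.339). On chromosome 9 it averaged 312 and 413 CPM (log2 change 0.40, FDR 0.307). The sum over the seed was 15571 to 16228 CPM in sham and 18097 to 20175 CPM at UUO-2 (1.20-fold, 2-sided exact permutation test, p = 0.0286, 0.0571 after Benjamini-Hochberg adjustment over the 2 families with more than 1 tested locus). Both families were picked because a member was called in these libraries, and each sum includes that member. These p-values are therefore no independent test of the family.

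miR-1941-5p was the locus that fell. It lies on chr15:101369364-101369387 (plus strand) in an intron of the antisense gene Gm35853, and its function is little known. It was at 14.8, 15.3, 8.80 and 15.7 CPM in sham and 4.92, 7.22, 6.31 and 4.84 CPM at UUO-2. Sham replicate 3 stood apart from the other sham libraries and nearest to UUO-2, still without overlap, and the change was -1.21 on the log2 scale (SE 0.28, edgeR FDR 0.0332). The call was lost in 10 of 20 alternatives: with library size alone (FDR 0.0605), limma-voom (0.0692) and the replicate block (0.0731), and when any library but sham replicate 3 was left out (0.0631 to 0.157). It was close to specific to ECs: on the shared scale it averaged 21.9 CPM in sham ECs against sham means of at most 0.383 CPM in the other cell types. Its 3p arm averaged 2.28 CPM in sham and 2.02 CPM at UUO-2.

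The changes of UUO-2 were set beside UUO-7, 7 days of obstruction, and R-UUO, 7 days followed by 14 days of reversal. These comparisons share the sham or the UUO-2 libraries with the one above, so they are not independent of it. No called locus differed between UUO-7 and UUO-2 at an FDR of 0.05. miR-21a-5p averaged 4929 CPM at UUO-7 and 5070.3 CPM in R-UUO, miR-142a-5p 98.1 and 69.5 CPM, and miR-155-5p 45.1 and 34.8 CPM, against sham means of 930.1, 21.1 and 10.3 CPM. miR-92b-3p was at 99.7 CPM in R-UUO (log2 change from sham 0.47, edgeR FDR 0.128), the 1 called locus that did not differ from sham in R-UUO at that FDR. miR-1941-5p fell further in R-UUO, to 1.94, 3.33, 1.89 and 2.74 CPM (log2 change from UUO-2 -1.20, edgeR FDR 0.0234). R-UUO replicate 4 had the lowest scaling factor of the EC libraries (0.674). With that library out of the fit, all 8 loci remained called and 12 rose in place of 7.

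Of the miRNAs that inflammatory signals are known to induce, or that restrain them, a few rose at UUO-2. Of 22 tested loci of the NF-κB and cytokine list, 4 rose (both miR-21a arms, miR-147-3p and miR-155-5p), none fell, and 11 were higher without overlap, where 1.49% and 6.61% of all loci did so. Of these loci 21 had a log2 change above 0, with a median of 0.51, against 51.8% and a median of 0.02 over all loci. This list and the others were chosen with earlier results of these data known, so such shares are not an independent test. miR-155-5p is also a leukocyte marker, and 4 of the 5 tested leukocyte loci were also above 0 (median 1.46). Their part in these values was not tested. miR-132-3p, a CREB and cytokine target, was at 44.1, 39.8, 40.0 and 35.5 CPM in sham and 59.1, 75.2, 60.3 and 57.8 CPM at UUO-2, without overlap. It missed the threshold narrowly (log2 change 0.66, SE 0.17, edgeR FDR 0.0505) and was called in several alternatives, among them DESeq2's Wald test and edgeR's likelihood ratio test. miR-221-3p and miR-222-3p, which share a seed and restrain KIT and CDKN1B, averaged 124 and 412 CPM in sham and 175 and 601 CPM at UUO-2, each without overlap (FDR 0.156 for both). miR-146a-5p, the brake on IRAK1 and TRAF6, averaged 1811 CPM in sham and 2144 CPM at UUO-2 (log2 change 0.24, FDR 0.48).

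**Figure D2:**
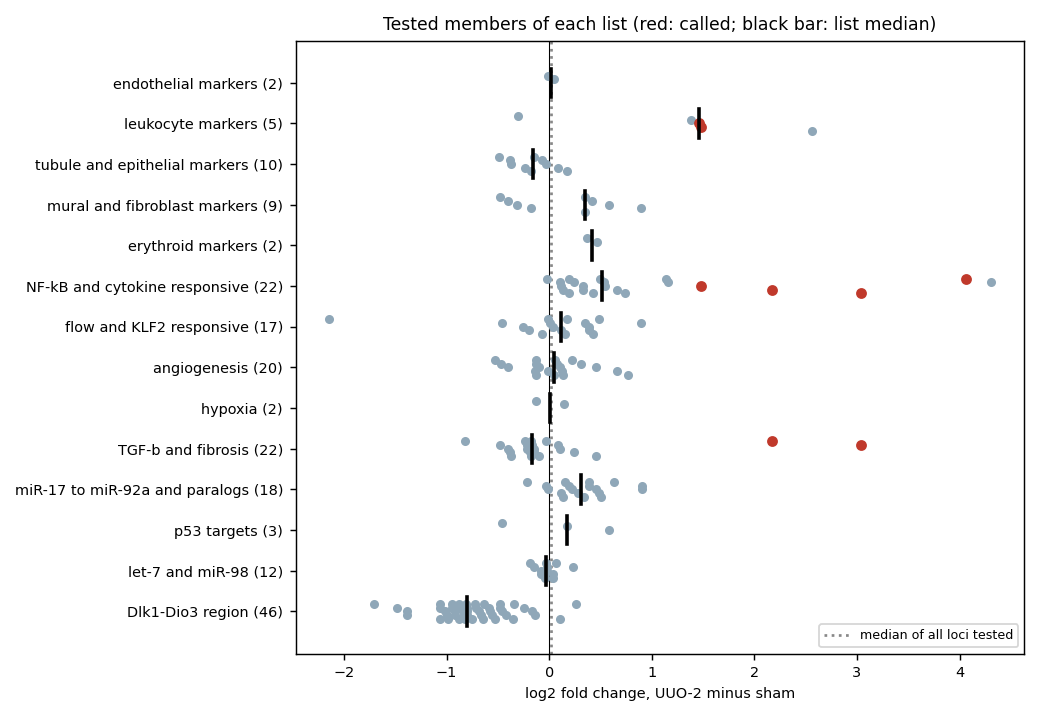
Log2 fold change (UUO-2 minus sham) of each tested member of the lists, with the number tested in brackets, called members in red, the list median as a black bar and the median of all loci as a dotted line. The NF-κB and cytokine members lie almost all right of 0, and the Dlk1-Dio3 loci almost all left of it.

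The miR-17 to miR-92a clusters and their paralogs, which MYC and E2F drive in dividing cells, had no call among 18 tested loci. Of these, 15 had a log2 change above 0, the median was 0.31, and 3 (miR-17-5p, miR-25-5p and miR-92a-1-5p) did not overlap with sham and had an unadjusted p under 0.05. Over all loci 51.8% were above 0, 6.61% were higher without overlap, 8.32% were higher at that p and 1.71% were called. miR-17-5p was at 17.9, 21.4, 24.3 and 20.0 CPM in sham and 29.9, 31.7, 26.9 and 30.5 CPM at UUO-2 (log2 change 0.51, edgeR FDR 0.147). Of the TGF-β and fibrosis list the miR-21a arms rose and the other 20 of 22 tested loci were not called, among them miR-29a-3p, a repressor of collagens (1639 and 1528 CPM, FDR 0.785). Its median was -0.17, and 16 loci were below 0.

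Lists on endothelial function had no call. Over all loci 1.71% were called, so no call in lists this short is near that share. None of 17 tested loci that answer to shear stress or to KLF2 was called, with miR-10a-5p, the most abundant locus of ECs, at 169642 to 224195 CPM in sham and 183692 to 262619 CPM at UUO-2. None of 20 angiogenesis loci was called. miR-126a-3p, which sustains VEGF signalling by repressing Spred1, averaged 15160 CPM in sham and 15673 CPM at UUO-2, a log2 change of 0.05 (SE 0.11, FDR 0.915). miR-210-3p, the direct target of HIF, averaged 4.63 and 4.13 CPM (FDR 0.928). The median changes were 0.12 for the flow list, 0.05 for angiogenesis, 0.01 for the 2 arms of miR-210, 0.17 for 3 tested loci of the miR-34 family that p53 induces, and -0.03 for 12 let-7 and miR-98 loci, with none called. These counts come from edgeR's test. An unadjusted p under 0.05 was found in the flow list for miR-145a-5p and miR-205-5p, in the angiogenesis list for miR-132-3p and miR-378a-3p, in the p53 list for miR-34c-5p, in the let-7 list for let-7g-5p and let-7i-5p, and for neither arm of miR-210. Over all loci 8.32% were higher and 4.9% lower at that p.

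**Figure D3:**
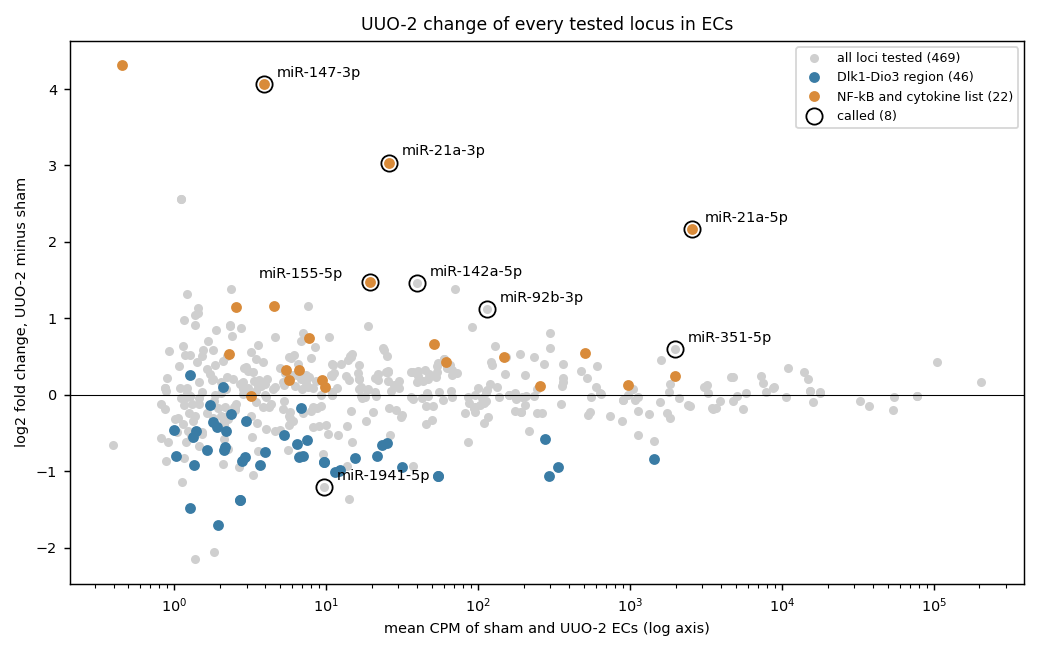
Log2 fold change (UUO-2 minus sham) against mean CPM of the 8 libraries (log axis) for the 469 tested loci, with called loci ringed and named, the NF-κB and cytokine list in orange and the Dlk1-Dio3 region in blue. The loci called span from a mean of a few CPM (miR-147-3p) to the abundant miR-21a-5p and miR-351-5p.

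The imprinted Dlk1-Dio3 region of chromosome 12, whose miRNAs are cut from long maternal transcripts, had no called locus, although most of its tested loci were lower at UUO-2. Of 116 loci in the region 46 were tested, between chr12:109572004 and chr12:109743784. Of these, 44 had a log2 change below 0 and the median was -0.80, against 43% below 0 among the other 423 loci. UUO-2 lay wholly below sham for 13 of the 46, and for 14 of the other 423. The test gave an unadjusted p under 0.05 for 9 loci. Over all loci 4.9% were lower at that p and 0.213% were called lower. These loci come from shared transcripts, and some carry the same reads (43 differ in their counts), so they are not independent. Most were rare, with 30 of the 46 under 10 CPM in sham. Which rare loci were tested depended on the low-count filter, and that choice can bear on the share below 0. Without that filter 99 loci of the region were tested, 77 were below 0, the median was -0.68 and 6 were called lower. Over all 1296 loci tested without it, 46.4% were above 0, the median was 0 and 10 were called lower.

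The most abundant locus of the region, miR-127-3p, was at 1524, 2331, 1583 and 1937 CPM in sham and 1259, 674, 1383 and 812 CPM at UUO-2 (log2 change -0.84, SE 0.41, edgeR FDR 0.377). miR-411-5p was at 339, 494, 475 and 459 CPM in sham and 203, 173, 331 and 210 CPM at UUO-2 (log2 change -0.95, SE 0.44, FDR 0.361). In both the groups did not overlap, with the highest UUO-2 value in replicate 3. With only sham and UUO-2 in the fit, miR-411-5p, miR-136-3p and miR-3071-5p were called lower, of which the last pair carried the same counts. In that fit 5 of all 428 loci tested were called lower. A fit with a replicate block called 5 loci of the region lower, and 6 of all 428 loci tested. That block matches sham and UUO-2 libraries by replicate number although they are different mice. Whether the numbers mark anything shared was not tested, so its calls are not relied on here. The summed CPM of the 43 loci was 2743, 4179, 3156 and 3547 in sham and 1949, 1321, 2617 and 1686 at UUO-2, so that the UUO-2 mean was 0.556 of the sham mean. It was 992 to 2441 CPM at UUO-7, also below all sham libraries, while R-UUO replicates ranged from 909 to 3842 CPM. On the shared scale the sum averaged 5454 CPM in sham ECs, and was next highest in PDGFR-β+ cells (797), with 44.5 in Macs and 29.1 in PT cells. Mural and fibroblast markers summed to 7095 to 14724 CPM in sham and 8504 to 15409 CPM at UUO-2, with 9 tested and none called, and their part in the lower level was not tested. After all EC libraries were thinned to the smallest total, 29 loci of the region were tested, all 29 were below 0 and the median was -0.92. Over all 358 loci tested after thinning, 47.5% were above 0 and the median was -0.01.

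**Figure D4:**
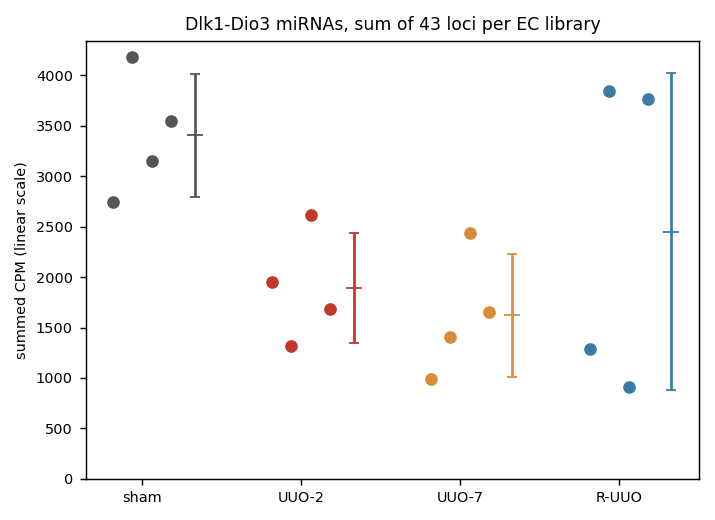
Summed CPM (linear axis) of 43 Dlk1-Dio3 loci with distinct counts in each EC library, with mean and SD of 4 libraries (bars). The 4 UUO-2 libraries, 1321 to 2617 CPM, lie below the 4 sham libraries, 2743 to 4179 CPM, and the R-UUO libraries fall apart into low and high values.

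Markers of tubule, mural and erythroid cells, which a CD31 sort could also hold, were not called, and an unadjusted p under 0.05 was found for miR-145a-5p and miR-34c-5p of the mural list alone. Over all loci 1.71% were called, and at that p 8.32% were higher and 4.9% lower. Tubule and epithelial markers, led by miR-192-5p, summed to 2076 to 3159 CPM in sham and 1722 to 2750 CPM at UUO-2, without a call. On the shared scale the sum averaged 3984 CPM in sham ECs and 3065 CPM in UUO-2 ECs, and 127022 and 73502 CPM in PT cells. In the mural list miR-145a-5p was at 55.8 to 79.7 CPM in sham and 46.2 to 165 CPM at UUO-2 (FDR 0.254). The erythroid markers had 2 tested loci, miR-486a-5p and miR-486b-5p, which near-identical sequences make hard to separate, and summed to 90.8 to 129 CPM and 77.3 to 193 CPM. In such sorted pools, a change in the share of another cell and a change of level within ECs cannot be told apart.

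The UUO-2 change of ECs was last compared with that of the other sorted cells in a fit over all 63 libraries, in which the difference itself was tested. Of 671 loci, the change differed from that in Macs for 45 (6.71%), from that in PT cells for 60 (8.94%) and from that in PDGFR-β+ cells for 10 (1.49%). With 1 term per mouse (replicate number within a condition) in the fit the PDGFR-β+ count was 16. The counts also moved with the scaling, to 28 (library size alone) and 22 (DESeq2's size factors) for PT cells. Of those that differed, 51.1% were larger in ECs than in Macs with TMM and 25.6% with library size alone, and for PT cells 10% and 21.4%. With DESeq2's size factors these shares were 34% and 40.9%. The median difference over all loci was -0.05 against Macs, -0.29 against PT cells and -0.18 against PDGFR-β+ cells on the log2 scale with TMM, -0.34, -0.02 and -0.13 with library size alone, and -0.22, 0 and -0.18 with DESeq2's size factors.

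miR-142a-5p moved in opposite directions in ECs and Macs. On the shared scale it averaged 33.8 CPM in sham and 83.7 CPM at UUO-2 in ECs, and 36493 and 24368 CPM in Macs (difference of the log2 changes 1.89, SE 0.38, edgeR FDR 0.000439). The rise was not particular to ECs: miR-142a-5p went from 79.8 to 164 CPM in PT cells and from 71.4 to 258 CPM in PDGFR-β+ cells. Neither change differed from that in ECs (difference 0.26, edgeR FDR 0.836, and -0.56, edgeR FDR 0.575). miR-21a-5p went from 1496 to 6070 CPM in ECs and from 32753 to 59987 CPM in Macs (difference 1.15, SE 0.36, edgeR FDR 0.0398). That call was lost with DESeq2's size factors (FDR 0.112) and without sham replicate 1, 2 or 4 or UUO-2 replicate 1, 2 or 4 (FDR up to 0.301). miR-147-3p, at 3.30 CPM in sham Macs and 67.3 CPM in UUO-2 Macs, differed by -0.44 (SE 0.84, FDR 0.888), an interval too wide to show whether the rises were alike.

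Against PT cells and PDGFR-β+ cells, 3 called loci differed. miR-351-5p went from 2530 to 3437 CPM in ECs and from 102 to 864 CPM in PT cells (difference -2.64, SE 0.44, edgeR FDR 3.23e-05), while it was at 8687 and 6959 CPM in PDGFR-β+ cells (difference 0.76, FDR 0.44). miR-21a-3p went from 9.0 to 66.1 CPM in ECs and from 93.4 to 257 CPM in PT cells (difference 1.41, SE 0.45, edgeR FDR 0.0387). That call was lost without sham replicate 1, 2 or 3 or UUO-2 replicate 1 or 4 (FDR up to 0.170). miR-155-5p went from 16.5 to 41.6 CPM in ECs and from 2.94 to 40.3 CPM in PDGFR-β+ cells, a smaller rise in ECs on the log2 scale (difference -2.50, SE 0.54, edgeR FDR 0.00839). The sham libraries of PDGFR-β+ cells were low and scattered, at 0.876 to 6.60 CPM, and the size of this difference depends on them. miR-21a-5p went from 1760 to 16175 CPM in PDGFR-β+ cells, and its change in ECs was smaller by a difference of -1.18 (SE 0.36) that did not pass the test (edgeR FDR 0.0775). It did pass with 1 term per mouse (-1.16, FDR 0.0249), with library size alone (FDR 0.0348), with only sham and UUO-2 libraries (FDR 0.0107) and without the low-count filter (FDR 0.00106). For miR-92b-3p no difference passed the test (0.45 against Macs, 0.57 against PT cells, 0.76 against PDGFR-β+ cells, FDR 0.301 to 0.582).

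**Figure D5:**
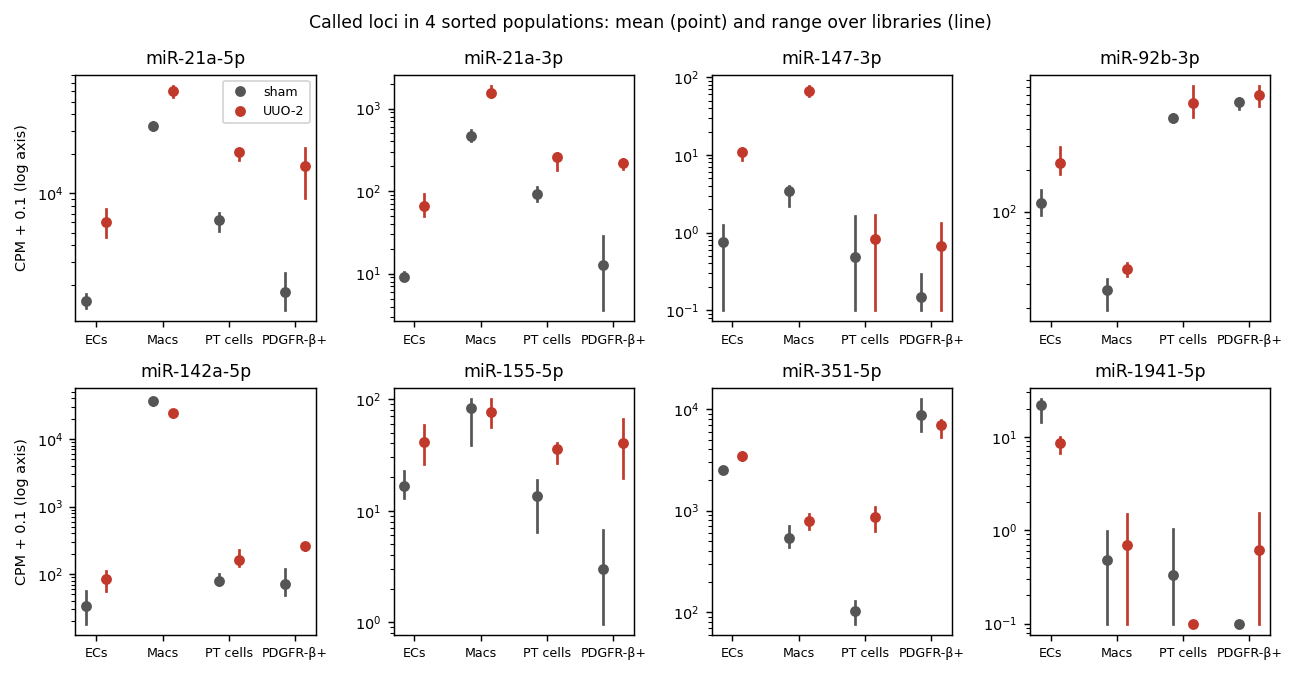
CPM + 0.1 (log axis, scale shared by all 63 libraries) of the 8 called loci in sham and UUO-2 libraries of the 4 sorted cell types, as mean (point) and range of 4 libraries (line). miR-1941-5p is near 0 outside ECs, and miR-142a-5p is highest in Macs by a wide margin.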

How the data were processed

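Small RNA of sorted kidney cells was sequenced by the authors as paired-end reads. Per the submitters' processing notes and the methods, reads were trimmed with Trim Galore 0.4.1 and cutadapt 1.1 and aligned to GRCm38 and miRBase with ShortStack and Bowtie. The deposited values are raw counts per mature miRNA locus, without normalization or pooling; strand use and placement of multi-mapping reads are not given in the sources used here.

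These were tested with edgeR 4.0.16 under R 4.3.3 (filterByExpr, TMM, quasi-likelihood test over 16 EC libraries, or over 63 for differences between cell types), with an FDR of 0.05 and, within ECs, a fold change of 1.5. DESeq2 1.42.0, limma-voom (limma 3.58.1), a likelihood ratio test, other scalings and filters, thinning, merged loci and each library left out were alternatives, with 1 (without the R-UUO library of lowest TMM factor) added after seeing the data. Single values used exact permutation tests. The tests were first checked on simulated counts. There the EC test called 59.8% of loci changed by 1 on the log2 scale, 91% of those changed by 2 and 0.763% of unchanged loci. Many changes of 2-fold would thus be missed.

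Named loci are those called, the 10 next by p, the 10 most abundant, their arms and seed relatives, and list members. The members and lists were chosen with earlier results of these data known. Replicates are different mice, and chi-square statistics of 66.5 to 316 per degree of freedom separated all 12 pairs. Hairpins and hosts are from GENCODE, with a hairpin at 2056 of 2110 loci and a RefSeq sequence at 1734.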

Additional observations from a re-analysis of the deposited data

Results flagged for a closer look

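In 1 of 20 groups of 4 checked, a library stood apart from the others: miR-1941-5p was at 8.80 CPM in sham replicate 3, against 14.8 to 15.7 CPM in the other sham libraries. Chance alone marks about 1 in 20 groups.

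For 5 of 24 tests the UUO-2 change of a called locus differed between ECs and another cell type (edgeR's quasi-likelihood test of the difference). Against Macs the differences were 1.15 on the log2 scale for miR-21a-5p and 1.89 for miR-142a-5p. Against PT cells they were 1.41 for miR-21a-3p and -2.64 for miR-351-5p, and against PDGFR-β+ cells -2.50 for miR-155-5p. Over 13 alternatives, the calls for miR-142a-5p, miR-351-5p and miR-155-5p held throughout, with FDR values of at most 0.0232, 0.000539 and 0.0388, while miR-21a-5p lost its call in 7 and miR-21a-3p in 5. miR-21a-5p against PDGFR-β+ cells (-1.18, FDR 0.0775) was gained in 4 alternatives, among them 1 term per mouse, where 6 of the 24 tests passed. miR-155-5p against Macs (1.42, FDR 0.0654) was gained without sham replicate 1 or UUO-2 replicate 3.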

How the results depend on the processing

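No called locus changed direction in any of 20 alternatives, and miR-21a-5p, miR-21a-3p and miR-147-3p stayed called in all of them. Against 7 loci higher and 1 lower, the counts were 18 and 10 without the low-count filter, 14 and 2 with DESeq2's Wald test, 13 and 2 with the likelihood ratio test, 0 lower with library size alone and with limma-voom, 5 lower with only both groups in the fit, and 12 higher without the R-UUO library of lowest TMM factor, an alternative chosen after seeing the data. Leaving out each library gave 4 to 10 higher and 0 to 1 lower. The replicate block gave 6 higher and 6 lower, with miR-351-5p and miR-1941-5p no longer called. The numbers are not known to pair the samples, which are different mice. Correlations of same-numbered deviations were 0.233, -0.02, -0.0011 and 0.179, and those of unlike numbers ran from -0.187 to 0.164. Whether the numbers mark anything shared was not tested. The count of loci whose change differed from that of PT cells was 28 with library size alone and 22 with DESeq2's size factors, and 22 to 58 with each library left out. From PDGFR-β+ cells it was 16 with the replicate block of 1 term per mouse, 21 without the filter, and 5 to 13 with each library left out. From Macs it was 34 to 53. The causes were not tested. UUO-2 libraries have fewer counts, which limits what could be called among loci near the floor.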

Other observations

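Among the 10 loci next in p, miR-378a-3p, which arises from a gene of mitochondrial biogenesis, was at 1087, 1288, 1550 and 1411 CPM in sham and 879, 895, 1005 and 912 CPM at UUO-2, without overlap (log2 change -0.53, edgeR FDR 0.0988). miR-874-3p was at 14.6, 18.0, 24.8 and 23.9 CPM in sham and 4.00, 6.80, 8.28 and 12.8 CPM at UUO-2 (log2 change -1.36). miR-183-5p, an epithelial and sensory miRNA, was at 3.19 to 8.08 CPM in sham and 7.86 to 15.6 CPM at UUO-2, which overlap. miR-335-3p, from an intron of Mest, was at 124 to 184 CPM in sham and 188 to 257 CPM at UUO-2, without overlap.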
